A study of Drosophila melanogaster with 12 samples.

Results

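Uhg5, Uhg2 and Uhg3 are the 3 U snoRNA host genes matched by name here. They were found among the 25842 genes or target sequences of 32162 array probes by their symbols, CR numbers or RefSeq transcript names. Of these probes 31665 had no gene symbol, so other host genes may be measured under unmatched names. The 3 matched genes were represented by 4 probes. Uhg5 (CR42452) had probe A_09_P166855, Uhg2 (CR32873) had probe A_09_P209190, and Uhg3 (CR32957) had probes A_09_P212695 and A_09_P179200. Transcript levels were measured in RNA of whole Drosophila melanogaster larvae on 12 one-colour arrays, 3 in each of 4 groups. The groups were REPTOR knockout larvae on rapamycin food, REPTOR knockout larvae on food with ethanol (EtOH), control larvae on rapamycin food, and control larvae on EtOH food. Rapamycin was given at 200 µM, feeding lasted 6 h in every group, and the larvae were labelled female and 48 h before wandering. The control is the w1118 stock. The labels do not describe the knockout allele or say whether it shares the w1118 background, and no probe was matched to REPTOR, so the genotypes could not be checked by the level of the deleted gene. The design calls the arrays of a group biological replicates.

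Small nucleolar RNAs (snoRNAs) pair with ribosomal RNA precursors and guide their chemical modification or cutting. In Drosophila many are cut out of the introns of genes for ribosomal proteins, whereas the Uhg genes are hosts whose spliced RNA encodes no known protein. In mammals, several non-coding hosts such as GAS5 belong to the terminal oligopyrimidine class, whose translation follows the kinase complex TORC1. Rapamycin inhibits TORC1, which otherwise promotes ribosome production, and REPTOR is a transcription factor that becomes active when TORC1 is inhibited.

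In the RefSeq table of the Release 6 assembly, 11 snoRNA genes lie within Uhg5, 4 within Uhg2 and 3 within Uhg3. Those of Uhg5 include snoRNA:Me18S-C1366, snoRNA:Me28S-A992 and snoRNA:Or-CD4, and most carry the Me of guides for ribose methylation in their names. Uhg2 holds snoRNA:U14:30Ea and snoRNA:U14:30Eb, versions of U14, which in yeast is needed to make the RNA of the small ribosomal subunit. It also holds snoRNA:Me18S-G1620 and snoRNA:Me18S-A1576. Uhg3 holds snoRNA:Me28S-C2645a, snoRNA:Me28S-C2645b and snoRNA:Me28S-C2645c, which share the name of a single target position. No probe was matched to any of these nested snoRNAs, so the values below concern the host transcripts. In the same table Uhg5 lies next to Sec61beta and CG12863, Uhg2 next to RpS2 and Bka, and Uhg3 next to brun and CG2611.

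Each array had 43602 spots other than controls, of which between 72.5% and 82.7% were well above background. The 48 host gene spots were all well above background, with 0 saturated and 0 marked as outliers. Their median signal was between 23.8 and 275 times the local background. Levels are log2 signals relative to the 75th percentile of the array, so a level of 0 is that percentile, and they are compared only within a probe. The 3 arrays per group limit the precision. Arrays lay 4 to a slide. Slide 1 held the control EtOH arrays and control rapamycin array 1. Slide 2 held control rapamycin arrays 2 and 3 and knockout EtOH arrays 1 and 2. Slide 3 held knockout EtOH array 3 and the knockout rapamycin arrays.

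Of 10 male and testis markers, 3 were matched, and both RNAs of the male dosage compensation complex were raised on some rapamycin arrays although all are labelled female. The level of lncRNA:roX2 (probe A_09_P091310) was 0.01, -1.10 and -5.83 on knockout rapamycin arrays 1, 2 and 3, and -1.29 on control rapamycin array 3. On the other 8 arrays it was between -9.06 and -6.90 and not well above background. The brightest lncRNA:roX1 probe had 3.88 and 2.91 on knockout rapamycin arrays 1 and 2 and 3.35 on control rapamycin array 3, and between -1.57 and 0.43 on the other 9 arrays. The testis gene f-cup followed another pattern, at -0.14 ± 0.12 in knockout larvae on rapamycin, -0.39 ± 0.01 in knockout larvae on EtOH, 1.29 ± 0.06 in control larvae on rapamycin and -0.29 ± 0.00 in control larvae on EtOH (SD, n = 3 arrays each). The ratios, the correlations, the second Uhg3 probe and the other genes are given below with all 12 arrays only. The host gene rapamycin effects, their differences and the genotype calls are given also without the 3 arrays named for raised roX2 (knockout rapamycin 1 and 2, control rapamycin 3). Knockout rapamycin array 3 was kept. On it roX2 was well above background at probe A_09_P091310, though not at the other roX2 probe, so these results may not be free of the signal.

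In REPTOR knockout larvae all 3 host genes were lower on rapamycin than on EtOH. Uhg5 had the largest change, to 42.5% of its level on EtOH food (95% confidence interval 34.9% to 51.9%). Uhg3 was at 54.8% and Uhg2 at 56.3%. Levels are relative to the other signals of the same array, so absolute amounts were not measured. The lower level of a transcript in whole larvae may, for example, reflect fewer cells of a type or less RNA per cell, which cannot be told apart.

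The Uhg5 levels were -0.16, 0.00 and -0.10 on the knockout rapamycin arrays, against 1.42, 1.07 and 0.95 on the knockout EtOH arrays. The Uhg2 levels were -2.35, -2.18 and -2.23 on rapamycin, against -1.18, -1.54 and -1.54 on EtOH. The Uhg3 levels (probe A_09_P212695) were -1.05, -1.10 and -1.15 on rapamycin, against -0.02, -0.30 and -0.39 on EtOH. For each gene every rapamycin array was below every EtOH array of the same genotype, and knockout EtOH array 1 was the highest of its group.

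The fitted change in knockout larvae was -1.23 ± 0.13 for Uhg5 (log2, SE, n = 3 arrays per group, limma adjusted p = 0.000613). It was -0.87 ± 0.15 for Uhg3 (adjusted p = 0.00575) and -0.83 ± 0.12 for Uhg2 (adjusted p = 0.00339). A lower call was made for 8.92% of the 18757 genes or target sequences tested, and 17.4% had rapamycin arrays wholly below the EtOH arrays. Counted from the lowest change of all tested targets, Uhg5 stood at place 169, Uhg3 at 417 and Uhg2 at 464. The median change of all tested targets was 0.01.

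The calls in knockout larvae changed with slide as a block and without the arrays with raised roX2, while the values stayed negative. With slide as a block, Uhg5 changed by -1.04 (adjusted p = 0.0426), while Uhg2 and Uhg3 both had -0.71 and did not pass (adjusted p = 0.117 and 0.1497). Within slide 3, which holds 1 knockout EtOH array, the changes were the same 3 values. With this layout the block estimate too compares only that EtOH array with the 3 rapamycin arrays, so it is no separate check. For Uhg5 and Uhg3 (probe A_09_P212695) that array was the lowest of its EtOH group. The spread within slide 3 comes from the 3 rapamycin arrays alone. In that fit 0 targets of the whole array passed limma's adjusted threshold and 2562 had an unadjusted p under 0.05, so the calls within the slide say nothing about the host genes. Without the 3 arrays with raised roX2, which leaves 1 knockout rapamycin array assumed to vary like the other groups, the changes were -1.25 for Uhg5, -0.81 for Uhg2 and -0.91 for Uhg3 (adjusted p = 0.0571, 0.118 and 0.133). Knockout rapamycin array 3, where roX2 was lowest in its group, lay between arrays 1 and 2 for Uhg5 and Uhg2. For Uhg3 it was the lowest of the 3 at probe A_09_P212695 and the highest at probe A_09_P179200.

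**Figure D1:**
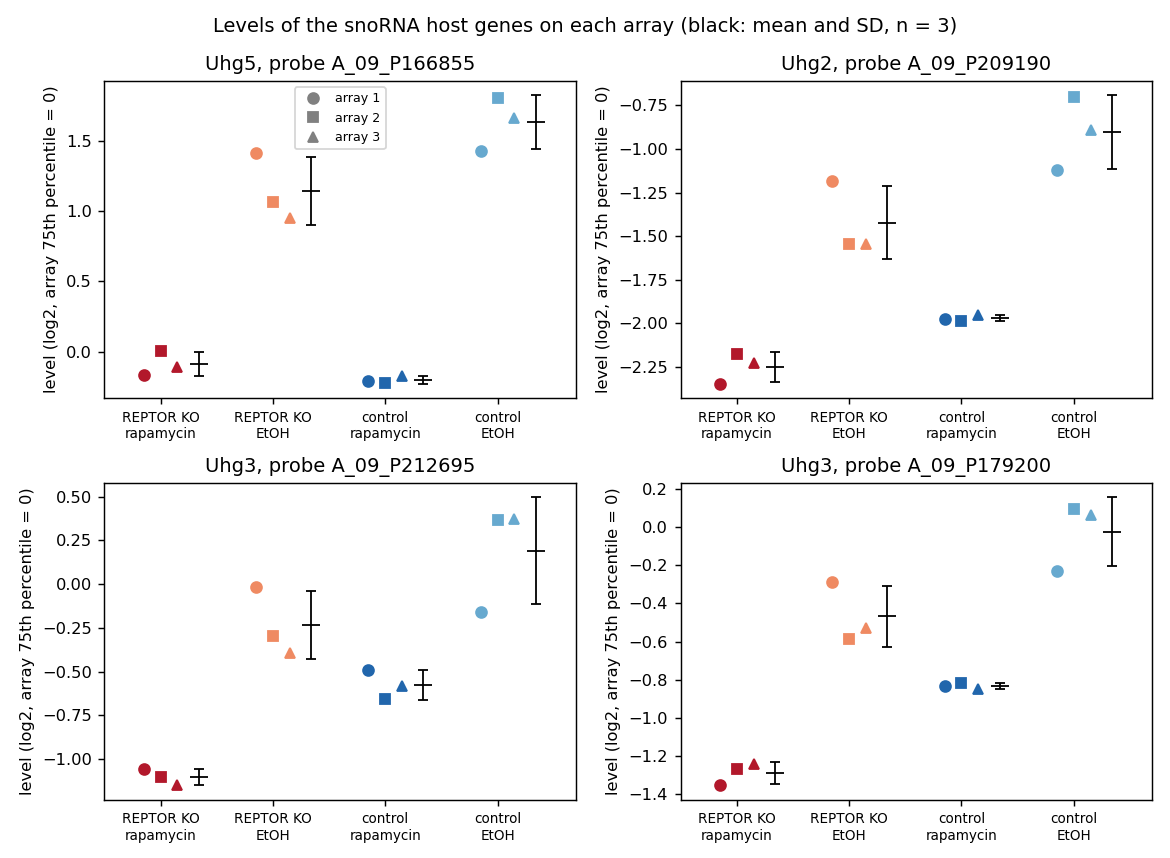
Level of each host gene probe on each of the 12 arrays (log2, relative to the array's 75th percentile; 1 panel per probe, each with its own axis). Points are arrays, with the mean and SD of 3 in black; in both genotypes the rapamycin arrays lie below the EtOH arrays at every probe.

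In control larvae rapamycin also lowered all 3 host genes, and the genes were further apart in the size of the fall. Uhg5 was at 28.1% of its EtOH level (95% confidence interval 23.0% to 34.2%), Uhg2 at 47.7% and Uhg3 at 58.7%.

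The Uhg5 levels were -0.21, -0.22 and -0.17 on the control rapamycin arrays, against 1.43, 1.81 and 1.66 on the control EtOH arrays. The Uhg2 levels were -1.98, -1.99 and -1.95 on rapamycin, against -1.12, -0.70 and -0.89 on EtOH. The Uhg3 levels (probe A_09_P212695) were -0.49, -0.66 and -0.58 on rapamycin, against -0.16, 0.37 and 0.37 on EtOH. The groups did not overlap for any of the genes, and control EtOH array 1 was the lowest of its group for each.

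The fitted change in control larvae was -1.83 ± 0.13 for Uhg5 (log2, SE, n = 3 arrays per group, limma adjusted p = 5.30e-06), place 162 from the lowest of all tested targets. Uhg2 changed by -1.07 ± 0.12 (adjusted p = 0.000111, place 801) and Uhg3 by -0.77 ± 0.15 (adjusted p = 0.00217, place 1567). In this comparison 21.8% of all tested targets were called lower, and 27.4% had rapamycin arrays wholly below the EtOH arrays, so a call by itself was common here. The median change of all tested targets was 0.05. With slide as a block Uhg5 had -1.84 (adjusted p = 0.000634) and Uhg2 -1.07 (adjusted p = 0.00638), whereas Uhg3 at -0.68 did not pass (adjusted p = 0.0536). Within slide 1, which holds 1 control rapamycin array, the values were the same, since the block estimate too rests on that rapamycin array. The spread within slide 1 comes from the 3 EtOH arrays alone. Without the 3 arrays with raised roX2 all 3 passed, at -1.85 for Uhg5, -1.08 for Uhg2 and -0.76 for Uhg3.

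Few targets fell as far in both genotypes. Of the 18757 tested, 1306 (6.96%) were called lower in both, the 3 host genes among them. Only 56 (0.299%) were at least as far down in both genotypes as Uhg5, counting Uhg5 itself. For Uhg2 that number was 203 (1.08%) and for Uhg3 242 (1.29%).

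**Figure D2:**
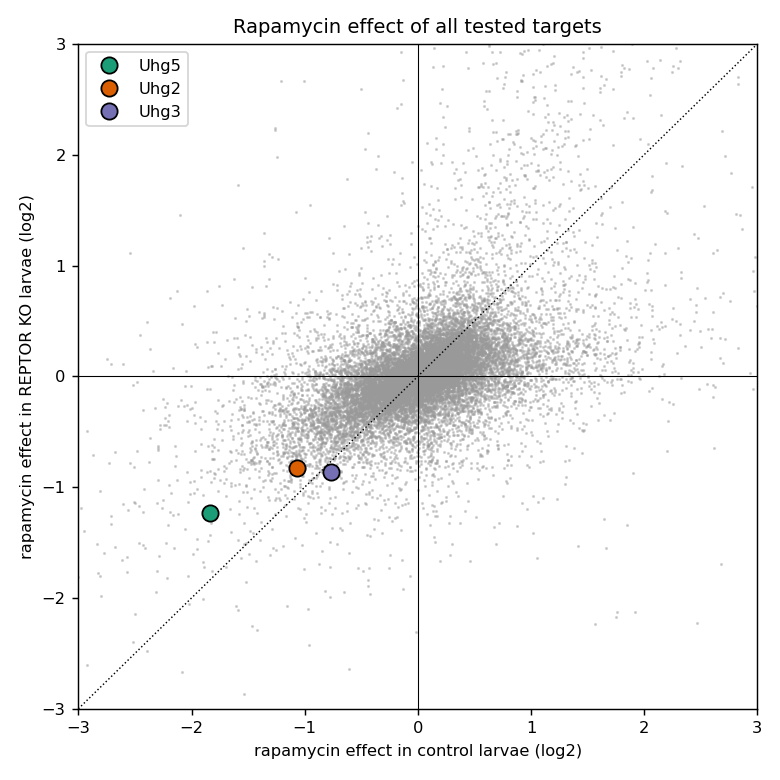
Rapamycin effect of every tested target (log2, rapamycin minus EtOH) in control larvae (horizontal axis) and in REPTOR knockout larvae (vertical axis), with the host genes in colour and the dotted line where both effects are equal. Uhg5 lies at -1.83 and -1.23, Uhg2 at -1.07 and -0.83 and Uhg3 at -0.77 and -0.87; 330 targets fall outside the axes.

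The effect in knockout larvae minus that in control larvae was positive for Uhg5, at 0.60 ± 0.18 (log2, SE, 95% confidence interval 0.19 to 1.00), so its fall was smaller by point estimate in the knockout. It did not pass after adjustment (limma adjusted p = 0.0537). The difference was 0.24 ± 0.17 for Uhg2 (interval -0.15 to 0.63, adjusted p = 0.418) and -0.10 ± 0.21 for Uhg3 (interval -0.56 to 0.36, adjusted p = 0.796). Thus 0 of 3 host genes passed, where 14.6% of all tested targets did, and the intervals of Uhg2 and Uhg3 include 0. The Uhg5 call changed with single EtOH arrays. The difference was 0.70 without control EtOH array 1 (adjusted p = 0.0279) and 0.74 without knockout EtOH array 1 (adjusted p = 0.0138), and it was 0.80 with slide as a block (adjusted p = 0.142). Without the 3 arrays with raised roX2, which leaves 1 knockout rapamycin array, the differences were 0.60 for Uhg5, 0.27 for Uhg2 and -0.15 for Uhg3.

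On EtOH food all 3 host genes had lower means in knockout than in control larvae, and of these differences that of Uhg2 passed. Uhg2 differed by -0.52 ± 0.12 (log2, SE, n = 3 arrays per group, limma adjusted p = 0.0416), which put it at 69.8% of the control level. Uhg5 had -0.49 ± 0.13 (adjusted p = 0.0532) and Uhg3 -0.43 ± 0.15 (adjusted p = 0.105). Of all tested targets 3.42% were called lower and 15.9% had knockout arrays wholly below the control arrays. The Uhg2 and Uhg5 arrays did not overlap, though for Uhg5 the highest knockout array (1.42) and the lowest control array (1.43) nearly met, and the Uhg3 arrays overlapped. The call for Uhg2 was near the threshold: it was lost without any one of 9 of the 12 arrays, with adjusted p from 0.0611 to 0.155, and held without control EtOH array 1, knockout EtOH array 1 or knockout rapamycin array 1. Without control EtOH array 1, Uhg5 (-0.59, adjusted p = 0.0228) and Uhg3 (-0.60, adjusted p = 0.0124) passed as well, and without knockout EtOH array 1 Uhg5 did (-0.62, adjusted p = 0.0272). The SE above pools the spread of all 4 groups. In a fit of the EtOH groups alone Uhg2 had -0.52 ± 0.15 and did not pass (limma adjusted p = 0.127). No slide held both genotypes on the same food. With slide as a block the Uhg2 value was -0.47 (adjusted p = 0.727), and without the 3 arrays with raised roX2 it was -0.52 (adjusted p = 0.1002).

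On rapamycin food the difference between genotypes passed for Uhg3 alone of the host genes. Uhg3 was lower in knockout larvae, at -0.53 ± 0.15 (log2, SE, n = 3 arrays per group, limma adjusted p = 0.0241), or 69.5% of the control level. Uhg2 had -0.28 ± 0.12 (adjusted p = 0.123), and Uhg5 0.11 ± 0.13 (adjusted p = 0.539), a sign that turned to -0.02 under median centring. Of all tested targets 14.9% were called lower. The arrays of the genotypes did not overlap for any of the 3 genes on this food, which also held for 44.8% of all tested targets in either direction. The Uhg3 call was lost without control rapamycin array 1 (-0.48, adjusted p = 0.0773), control rapamycin array 3 (-0.53, adjusted p = 0.0555), knockout rapamycin array 2 (-0.53, adjusted p = 0.0624) or knockout rapamycin array 3 (-0.50, adjusted p = 0.0759). With slide as a block it was -0.25 (adjusted p = 0.751), and without the 3 arrays with raised roX2 it was -0.58 (adjusted p = 0.200).

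**Figure D3:**
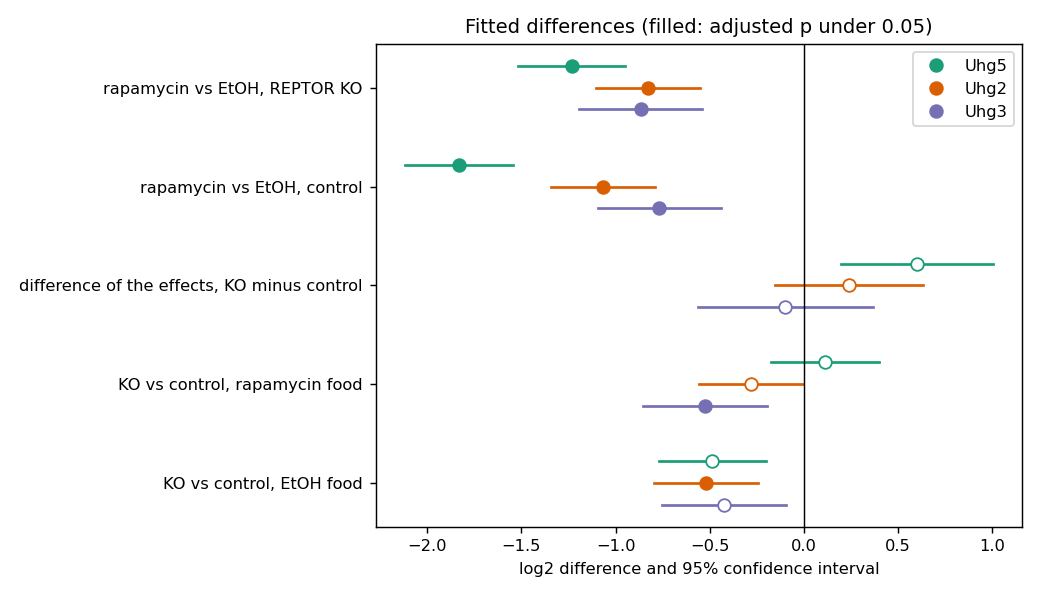
Fitted log2 differences of the 3 host genes (horizontal axis) in the 5 comparisons, with 95% confidence intervals; filled points have an adjusted p under 0.05. The 6 rapamycin effects are all below 0, whereas the 3 differences of effects are all open.

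By mean level the 4 groups of Uhg2 and of Uhg3 stood in the same order, and Uhg5 differed from it in its rapamycin groups, a pair that did not pass the test. Uhg5 averaged -0.09 ± 0.08 in knockout larvae on rapamycin, 1.15 ± 0.24 in knockout larvae on EtOH, -0.20 ± 0.03 in control larvae on rapamycin and 1.63 ± 0.19 in control larvae on EtOH (SD, n = 3 arrays each). Its 2 rapamycin groups were neighbours at the bottom and its 2 EtOH groups at the top, and neither pair passed the test. Uhg2 averaged -2.25 ± 0.09 in knockout larvae on rapamycin, -1.42 ± 0.21 in knockout larvae on EtOH, -1.97 ± 0.02 in control larvae on rapamycin and -0.90 ± 0.21 in control larvae on EtOH. For Uhg2 the knockout rapamycin group was lowest and its distance to control rapamycin did not pass, whereas the EtOH pair passed near the threshold. Uhg3 averaged -1.10 ± 0.05 in knockout larvae on rapamycin, -0.23 ± 0.20 in knockout larvae on EtOH, -0.58 ± 0.08 in control larvae on rapamycin and 0.19 ± 0.31 in control larvae on EtOH. For Uhg3, at probe A_09_P212695, the rapamycin pair passed and the EtOH pair did not. Whether the host genes differ from each other in these genotype differences was not tested.

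The second Uhg3 probe, A_09_P179200, ran with the first, at a correlation of 0.98 over the 12 arrays. Its levels were -1.35, -1.27 and -1.24 in knockout larvae on rapamycin and -0.29, -0.59 and -0.53 in knockout larvae on EtOH. They were -0.83, -0.82 and -0.85 in control larvae on rapamycin and -0.23, 0.09 and 0.06 in control larvae on EtOH. In a fit of all 23645 tested probes it changed on rapamycin by -0.82 ± 0.10 in knockout larvae (adjusted p = 0.00158) and by -0.81 ± 0.10 in control larvae (adjusted p = 0.000189), nearly the same size in both genotypes. Between genotypes it had -0.44 ± 0.10 on EtOH food (adjusted p = 0.0397) and -0.45 ± 0.10 on rapamycin food (adjusted p = 0.00909). The probes thus gave the same calls except for the genotype comparison on EtOH, where the second passed and the first did not.

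Ratios of 2 host genes on the same array, in which the scaling of the array cancels, moved with rapamycin and are given as a description. The log2 ratio of Uhg5 to Uhg2 was 2.16 ± 0.03 in knockout larvae on rapamycin, 2.57 ± 0.06 in knockout larvae on EtOH, 1.77 ± 0.01 in control larvae on rapamycin and 2.54 ± 0.03 in control larvae on EtOH (SD, n = 3 arrays each). Only the changes of a ratio can be read, since its size depends on both probes. On EtOH food the genotypes overlapped, with a difference of 0.03. On rapamycin the ratio was lower in both genotypes, by point values of -0.41 in knockout and -0.77 in control larvae. There the knockout arrays lay above the control arrays by 0.39 without overlap. No slide held both genotypes on rapamycin food, and how many other pairs of targets show such a gap was not counted. For single targets on that food, non-overlap in either direction held for 44.8%.

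The ratio of Uhg5 to Uhg3 was lowest in control larvae on rapamycin too, at 1.01 ± 0.11 in knockout larvae on rapamycin, 1.38 ± 0.05 in knockout larvae on EtOH, 0.38 ± 0.08 in control larvae on rapamycin and 1.44 ± 0.15 in control larvae on EtOH. Its change on rapamycin was -0.37 in knockout and -1.06 in control larvae. The ratio of Uhg2 to Uhg3 changed least, by 0.04 in knockout larvae, where the foods overlapped, and by -0.30 in control larvae, where they did not. Between genotypes it differed by -0.09 on EtOH food, where the arrays overlapped, and by 0.25 on rapamycin food, where the knockout arrays lay above the control arrays without overlap. Each ratio with Uhg5 over the other hosts was therefore lower on rapamycin in both genotypes, with the smaller shift in the knockout by point values. These shifts share the Uhg5 signal, whose own difference of effects did not pass.

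**Figure D4:**
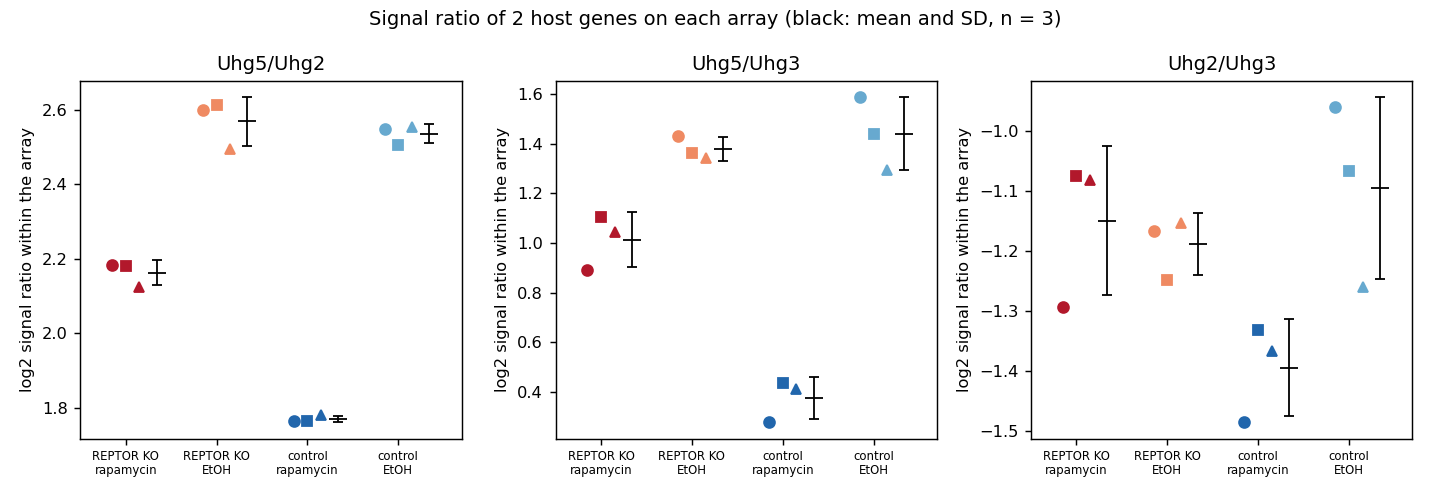
Log2 ratio of 2 host gene signals on each array, 1 panel per pair, with the mean and SD of 3 arrays in black (each panel has its own axis). In all 3 panels the knockout and control EtOH arrays overlap and the knockout rapamycin arrays lie above the control rapamycin arrays, by 0.39 for Uhg5/Uhg2, 0.64 for Uhg5/Uhg3 and 0.25 for Uhg2/Uhg3.

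The hosts also varied together between arrays of the same group. After group means were subtracted, the levels of Uhg5 and Uhg2 correlated at 0.97, those of Uhg5 and Uhg3 at 0.83 and those of Uhg2 and Uhg3 at 0.81, over 12 arrays that share slides and scaling. By this measure Uhg2 was the closest of all tested targets to Uhg5, whereas Uhg3 was only at place 264, so its correlation was shared by many other targets. Knockout EtOH array 1 was above its group mean by 0.27 for Uhg5, 0.24 for Uhg2 and 0.22 for Uhg3. Control EtOH array 1 deviated by -0.21 for Uhg5, -0.22 for Uhg2 and -0.35 for Uhg3. At all 4 probes the SD was larger on EtOH than on rapamycin in both genotypes, a pattern of 27.9% of all tested targets. These 2 arrays stood the same way, highest and lowest of their groups, for 20.1% of all tested targets.

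**Figure D5:**
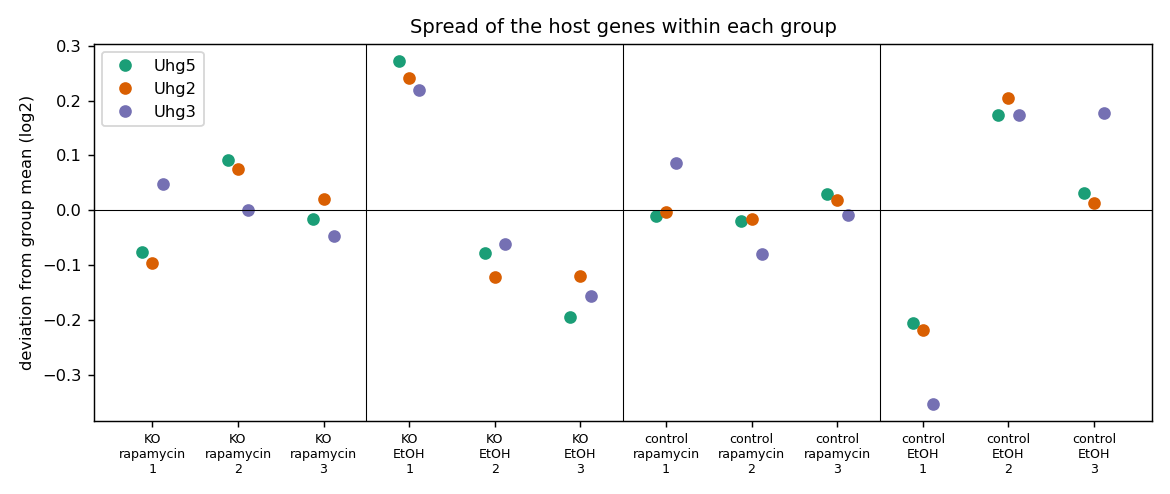
Deviation of each host gene from its group mean on each array (log2, vertical axis), with arrays grouped by genotype and food. All 3 genes lie above 0 on knockout EtOH array 1 and below 0 on control EtOH array 1.

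Other genes of the snoRNA pathway were sparsely matched by name. Of the 32162 probes 31665 had no gene symbol, so a gene without a match may still have a probe. No probe was matched to any of 5 other snoRNA host genes, 12 snoRNA-protein complex genes or 7 RNA surveillance genes. Of 34 genes of ribosome production, 2 were matched, and Polr1H, encoding an RNA polymerase I subunit, did not pass the filter on dim probes. The other, Rrp42, encodes a subunit of the RNA exosome, which trims ribosomal and snoRNA precursors. Rrp42 fell on rapamycin by 0.74 ± 0.12 on the log2 scale in knockout larvae (limma adjusted p = 0.00443) and by 0.52 ± 0.12 in control larvae (adjusted p = 0.00538). Of all tested targets 8.92% were called lower in knockout and 21.8% in control larvae. Counted from the lowest change of 18757 targets, Rrp42 stood at place 670 in knockout and 2785 in control larvae.

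The 5 small RNAs of the class that were matched by name lie outside the Uhg genes. For rapamycin in knockout larvae 0 of 5 passed, with a median change of -0.08, where 15.3% of all tested targets passed in either direction. In control larvae 1 of 5 was called lower, a share near the 21.8% of all tested targets. It was snoRNA:Psi28S-291, a pseudouridylation guide, with -0.41 ± 0.14 (log2, SE, adjusted p = 0.0370). The same snoRNA had -0.29 ± 0.14 in knockout larvae (adjusted p = 0.172). The other guide of this kind, snoRNA:Psi28S-2566, had -0.08 ± 0.12 in knockout and -0.31 ± 0.12 in control larvae (adjusted p = 0.0657 in control). The copies of U3, needed for cutting the ribosomal RNA precursor, had small values: snoRNA:U3:54Aa had 0.07 ± 0.13 in knockout and 0.09 ± 0.13 in control larvae. For snoRNA:U3:9B they were -0.06 ± 0.10 in knockout and 0.12 ± 0.10 in control larvae. The small Cajal body RNA scaRNA:MeU5-C46 had -0.17 ± 0.09 in knockout larvae and 0.00 ± 0.09 in control larvae. Between genotypes on rapamycin food scaRNA:MeU5-C46 was lower in the knockout, by -0.31 ± 0.09 (adjusted p = 0.0320), the only one of the 5 to pass there, where 14.9% of all tested targets were called lower. In the RefSeq table snoRNA:Psi28S-291 lies within RpL3, snoRNA:Psi28S-2566 within CG3902 and scaRNA:MeU5-C46 within CG1142, and whether their probes also measured host precursors was not tested.

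Among the 137 other tested genes with a symbol that is not a bare CG or CR number, the level of Uhg5 over the 12 arrays was most like that of TrpRS (correlation 0.97), which encodes a tryptophanyl-tRNA synthetase, then Vha13, encoding a proton pump subunit, and Uhg2 (0.96 each). Over all tested targets TrpRS was only at place 82 by this measure, Vha13 at 245 and Uhg2 at 248. Among the named genes, Uhg2 was most like Uhg3, RpS7 and mRpL52 (0.96 each), at places 149, 152 and 163 of all tested targets. RpS7 encodes a ribosomal protein of the cytosol and mRpL52 one of mitochondria. Uhg3 was most like Rrp42 (0.97), Uhg2 (0.96) and Polr2F, encoding a shared RNA polymerase subunit (0.94). Those were at places 59, 83 and 205 of all tested targets. After group means were subtracted, Uhg2 was the closest to Uhg5 of all tested targets. The next named genes for Uhg5 were snoRNA:U3:54Aa (0.87) and Uhg3 (0.83), at places 135 and 264 of all tested targets. For Uhg2 the nearest named genes were Uhg5, at place 3 of all tested targets, then snoRNA:Psi28S-291 and Fdx1, a ferredoxin gene (0.87 each), at places 204 and 232. These correlations describe arrays that share 4 groups and 3 slides.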

How the data were processed

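Per the file headers, the scanner files hold 1 intensity per spot of one-colour (Cy3) arrays, hybridised with label made from 0.5 µg total RNA. The submitters' processing notes name Agilent Feature Extraction 10.7. The background-corrected processed signal was used. The deposited value table holds a second intensity, made by a step not given in the sources used here. It is linear, follows the median spot signal (correlation of log2 values from 0.998 to 1.000), is neither centred nor a ratio, and has column medians from 143.6 to 156.5. It served as an alternative.

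Control and outlier spots were left out, spots of a probe were averaged, and log2 signals were taken relative to each array's 75th percentile. Names came from the files' accessions and the RefSeq table: 494 probes had 1 symbol, 3 several and 31665 none. Each of 25842 genes or target sequences was represented by its brightest probe, and 18757 were tested, those whose probe exceeded background clearly in every array of 1 group or more. limma 3.58.1 (R 4.3.3) fitted 4 group means with 8 residual degrees of freedom. Its p-values are two-sided, Benjamini-Hochberg adjusted over all tested targets, with a threshold of 0.05. On simulated data, the fit called 160 of 200 changed targets and 6 unchanged ones in the control rapamycin comparison. The simulated noise was independent between arrays, without slide differences, and the smallest planted change exceeded most of the host gene differences. The simulation therefore says nothing about slide effects or changes of smaller size.

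The host genes, the 6 gene lists and the rule for named genes (every list member on the array, and for each host the 3 symbols with the highest correlation) were chosen with earlier results of these data known. The symbols nearest to Uhg3 after subtracting group means are not reported here. Alternatives were other scalings and background correction, the value table, other filters, probe rules and variance models, slide or replicate number as a block, and leaving out arrays. With slide as a random block the fitted correlation within a slide was -0.16. Arrays of a slide were thus treated as less alike than arrays of different slides. Calls gained with the random block therefore do not show that a genotype difference holds with slide allowed for. With slide as a block the same comparisons did not pass. The mean spot signal was not used, so normexp correction (offset 50) took the median signal. The array design and the RefSeq table use different assemblies, so no coordinates are given. Sequences of the probes, promoters and snoRNAs were not used here.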

Additional observations from a re-analysis of the deposited data

How the results depend on the processing

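Over the 15 host gene results and 428 alternative values, 374 kept their side of the threshold, 36 no longer passed, 18 newly passed and 0 reversed a call. Of the 374, 4 values that did not pass turned in sign: Uhg5 between genotypes on rapamycin under median centring (-0.02), and the Uhg3 difference with array weights (0.00) or without EtOH array 1 of control (0.08) or knockout (0.01) larvae. All 6 rapamycin effects kept their sign in every alternative, and their calls held when any one array was left out. Leaving out each array in turn gave, in knockout larvae, -1.33 to -1.10 for Uhg5, -0.89 to -0.71 for Uhg2 and -0.95 to -0.76 for Uhg3, and in control larvae -1.94 to -1.75, -1.18 to -0.97 and -0.94 to -0.68 for the same genes. It gave a difference of effects of 0.50 to 0.74 for Uhg5, 0.14 to 0.36 for Uhg2 and -0.19 to 0.08 for Uhg3. For knockout against control it gave -0.62 to -0.39, -0.64 to -0.42 and -0.60 to -0.34 on EtOH food, and 0.07 to 0.15, -0.32 to -0.23 and -0.57 to -0.48 on rapamycin food, for Uhg5, Uhg2 and Uhg3 in this order. The cause of a lost or gained call below was not tested.

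Rapamycin calls were lost with slide as a block for Uhg2 (-0.71) and Uhg3 (-0.71) in knockout larvae and for Uhg3 (-0.68) in control larvae, within slide 3 (a fit in which no target passed) for Uhg5 (-1.04), Uhg2 (-0.71) and Uhg3 (-0.71), within slide 1 for Uhg3 (-0.68), and without the 3 arrays with raised roX2 for Uhg5 (-1.25), Uhg2 (-0.81) and Uhg3 (-0.91) in knockout larvae. The Uhg2 call on EtOH food was lost with median centring (-0.54), quantile normalisation (-0.52), normexp (-0.49), the value table (-0.53), no filter (-0.52), only the groups compared (-0.52), slide as a block (-0.47) and without those 3 arrays (-0.52). The Uhg3 call on rapamycin food was lost with median centring (-0.66), slide as a block (-0.25) and without those 3 arrays (-0.58). Gains without single EtOH arrays are given above. The Uhg5 difference of effects and its EtOH comparison newly passed with a filter on all arrays or a variance trend (0.60 and -0.49). Both passed with array weights (0.68 and -0.51) and slide as a random block at correlation -0.16 (0.52 and -0.47). So did Uhg3 on EtOH food with its other probe (-0.44), a random block (-0.44) and array weights (-0.52), and Uhg2 on rapamycin food with a random block (-0.32) or only the groups compared (-0.28).

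Replicate numbers showed no pairing: deviations from group means of same-numbered arrays correlated between -0.82 and 0.18. With the replicate block the values for Uhg2 on EtOH food (-0.52, adjusted p = 0.0921) and Uhg3 on rapamycin food (-0.53, adjusted p = 0.0559) no longer passed, and the other 13 results kept their side. The block gave 1768 called targets in knockout larvae against 2864.

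Counts of called targets over the alternatives ran from 0 to 4510 for rapamycin in knockout larvae (2864 as reported), 3188 to 9971 in control larvae (8079), 329 to 4984 for the difference of effects (2742), 10 to 4168 for the genotypes on EtOH (1187) and 793 to 7760 on rapamycin (5226). Median centring moved the median of all targets to -0.33 in knockout and -0.18 in control larvae. The share of calls that were higher was then 6.55% against 41.6% in knockout larvae and 21.9% against 49.3% in control larvae, 23.7% against 45.3% for the difference and 23.1% against 46.4% for the genotypes on rapamycin. In knockout larvae it was 31.6% with quantile normalisation and 30.6% in the value table. Relative to the shifted median the hosts stood at -1.24 (Uhg5), -0.84 (Uhg2) and -0.88 (Uhg3) in knockout and -1.88, -1.12 and -0.82 in control larvae.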
